A study of Mus musculus with 16 samples.

Results

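The myosin light chains measured here were Myl1, Myl2, Myl3, Myl4, Myl6, Myl7 and Myl9, the atrial, ventricular, skeletal, smooth muscle and nonmuscle forms among the mouse genes of this family. They were chosen by name, each represented by the probe set that names it alone and has the highest mean signal. All 7 passed a filter on dim signal, among 10802 genes tested. They have 10 probe sets that name 1 gene, of 45101 probe sets on the array. The cells were P19CL6, a line of mouse embryonal carcinoma origin in which dimethyl sulfoxide (DMSO) brings about beating cardiac muscle. Growth cells were kept undifferentiated without DMSO by passage every 48 h, with 3 arrays. The other cells were plated in medium with 1% DMSO that was renewed every 48 h, and were taken after 4, 8 and 10 days, with 3 arrays each, and after 6 and 12 days, with 2 arrays each. All groups share this 1 line, no group was kept without DMSO for as long, and passage differed as well as DMSO, so that time in culture and DMSO cannot be told apart. The submitters call the samples independent. In RNA from whole cultures, fewer cells of a type and less RNA per cell cannot be told apart.

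Myosin II is the motor of muscle contraction. A pair of heavy chains carries the motor heads, and the lever arm of each head is wrapped by an essential and a regulatory light chain. Regulatory chains are switched by phosphorylation, by a myosin light chain kinase and a myosin phosphatase, which starts contraction in smooth muscle and tunes it in the heart. The early heart tube makes the atrial forms along its length, and the ventricular forms later mark the chambers that pump to the arteries. Among the essential chains are Myl4 (atrial and embryonic muscle), Myl3 (ventricle and slow skeletal muscle), Myl1 (fast skeletal muscle) and Myl6 (smooth muscle and nonmuscle cells). Among the regulatory chains are Myl7 (atrial), Myl2 (ventricle and slow skeletal muscle) and Myl9 (smooth muscle and nonmuscle cells).

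The promoter windows of the light chains are shown because 4 of the 7 share a CArG box, the element bound by serum response factor. RefSeq windows of GRCm38.p6, from 250 bases before to 50 after a start, were found for all 7 genes, 9 windows in all. Of 32851 windows of this length over all genes, 1.63% held a CArG box, and of the 9 light chain windows 4 did. Single CArG boxes lay in the windows of Myl7, Myl3 and Myl9 and of 1 of the 2 starts of Myl6. Upstream sequences are printed 5′ to 3′ on the gene's strand, 250 bases each, with all motif matches in capitals.
Myl7, chr11:5898783-5899032, minus strand, with an M-CAT motif followed by the CArG box: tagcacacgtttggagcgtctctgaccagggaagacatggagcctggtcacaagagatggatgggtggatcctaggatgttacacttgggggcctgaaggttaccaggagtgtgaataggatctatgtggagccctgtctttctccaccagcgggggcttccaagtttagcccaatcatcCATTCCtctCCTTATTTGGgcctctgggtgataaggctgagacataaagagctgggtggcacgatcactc
Myl3, chr9:110763428-110763677, plus strand, with a pair of M-CAT motifs followed by the CArG box: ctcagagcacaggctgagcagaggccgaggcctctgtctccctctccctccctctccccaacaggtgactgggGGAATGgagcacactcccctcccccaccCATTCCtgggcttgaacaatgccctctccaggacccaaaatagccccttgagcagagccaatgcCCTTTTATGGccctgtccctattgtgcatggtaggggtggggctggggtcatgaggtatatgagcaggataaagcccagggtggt
Myl9, chr2:156775214-156775463, plus strand, with the CArG box: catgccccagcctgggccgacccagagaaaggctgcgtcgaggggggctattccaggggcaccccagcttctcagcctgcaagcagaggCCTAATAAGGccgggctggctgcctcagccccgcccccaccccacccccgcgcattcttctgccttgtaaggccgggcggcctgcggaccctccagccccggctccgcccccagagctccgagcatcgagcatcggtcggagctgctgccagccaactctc
Myl6, chr10:128493010-128493259, minus strand, the second start listed, with the CArG box: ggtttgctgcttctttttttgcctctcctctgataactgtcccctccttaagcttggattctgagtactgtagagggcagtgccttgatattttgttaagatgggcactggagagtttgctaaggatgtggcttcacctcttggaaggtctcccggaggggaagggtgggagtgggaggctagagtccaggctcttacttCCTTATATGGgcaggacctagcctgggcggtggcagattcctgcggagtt

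The CArG box began 61 bases before the start in Myl7, 85 in Myl3, 161 in Myl9 and 50 in Myl6. The CArG box of Myl7 lay just downstream of an M-CAT motif, the element of TEAD factors, which began 70 bases before the start. Its letters are CATTCC, and 14.7% of all windows held it on either strand. It was also found in the windows of Myl3 and Myl1. The E-box CAGCTG, a site of MyoD and related factors, was found in the windows of Myl1 and of both starts of Myl2, against 16.3% of all windows. The GATA motif AGATAA was found at 1 start of Myl2, against 11.2% of all windows. The 9 windows held no match to the MEF2 site (0.557% of all windows), to the NKX2-5 motif TNAAGTG (11.5%), to the T-box motif AGGTGT (13.7%) or, on the gene's strand, to TATAAA (8.32%). All motifs but TATAAA were searched on both strands, and 0 of the 12 matches overlapped another. The Myl4 window held none of the 8 motifs.

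**Figure D1:**
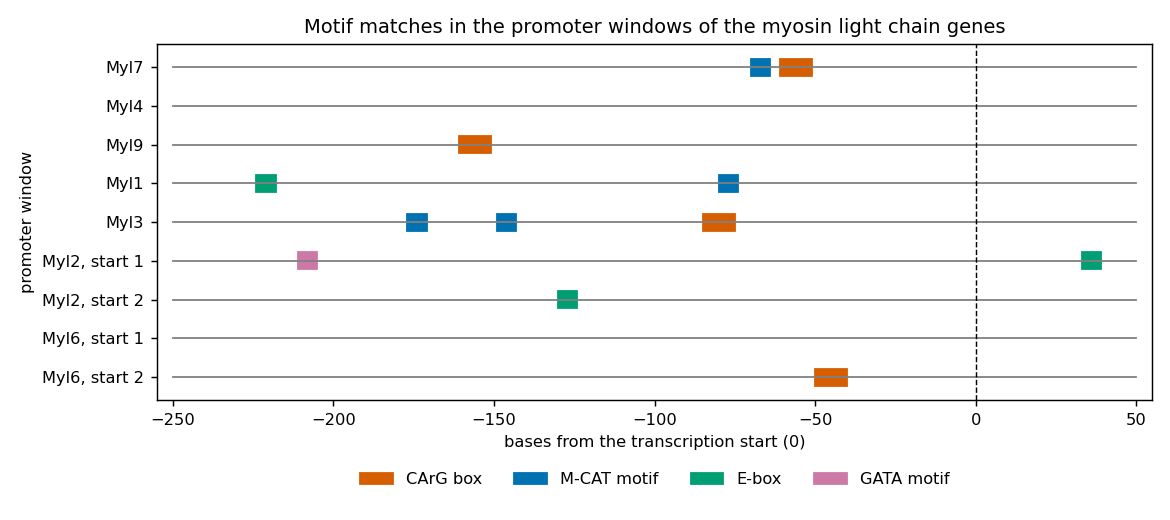
Promoter windows of the 7 genes (9 starts), drawn as lines from 250 bases before to 50 bases after the start, with motif matches as boxes to scale. CArG boxes lie at 50 to 161 bases before the start in Myl7, Myl9, Myl3 and the second start of Myl6, and the Myl4 window is empty.

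Signals are log2 GCRMA values, and a signal under 4 is called dim. Array medians ran from 3.16 to 3.27. Within groups the lowest Pearson correlation between arrays was 0.956. It involved day 8 replicate A, which stood apart. That array was closer to the 2 day 6 arrays (0.990 to 0.992) than to replicates B and C of its own day (0.956 to 0.967). Results of the members that rest on day 8 are therefore given with and without it. The undifferentiated markers Pou5f1, Nanog, Sox2, Utf1 and Tdgf1 were lower than growth on every DMSO day, while Zfp42 was dim on all arrays, growth included.

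At days 4 and 6 none of the 7 light chains was called different from growth. By limma with Benjamini-Hochberg adjustment over all genes, 0 of 7 were called at day 4, where 27.0% of all genes were called in either direction, and 0 of 7 at day 6, where 26.8% were. At each of these days 1 member had an unadjusted p under 0.05. At day 8, 2 of 7 were called, Myl4 and Myl9, both higher, against 31.0% of all genes in either direction. Without replicate A 4 of 7 were called, Myl4, Myl6, Myl7 and Myl9, where 33.4% of all genes were called. At day 10 all 7 were called, each higher than growth, where 38.0% of all genes were called in either direction. At day 12 all 7 were again called higher, where 41.9% of all genes were called in either direction. The median difference of the 7 was 3.89 log2 at day 10 and 5.41 at day 12, against -0.02 and 0.00 over all genes. Both medians are the fitted values of Myl1, which was dim in growth. Its rise is read only as at least 7.47-fold and 21.4-fold. Myl1, Myl2 and Myl4 were above the dim cutoff only at late days and passed the filter through them. These counts and medians therefore describe the members and do not support a family-wide rule. Over the 6 groups the moderated F test called 7 of 7, against 60.9% of all genes.

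**Figure D2:**
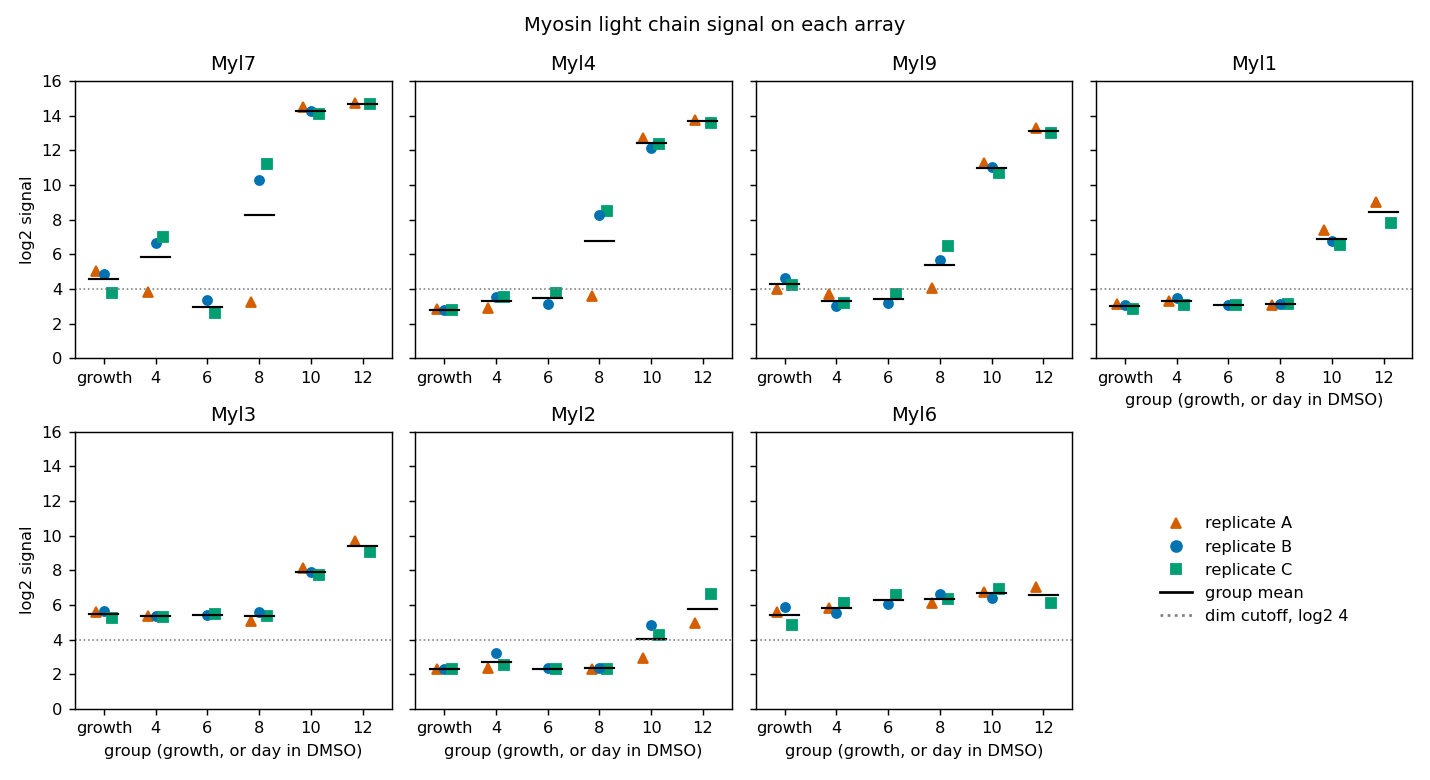
Log2 signal of each light chain on each of the 16 arrays, by group. Symbols are replicate letters, bars are group means and the dotted line is the dim cutoff of 4. Myl7, Myl4 and Myl9 are above the cutoff on day 8 replicates B and C, and Myl1 and Myl2 pass it at day 10 or later.

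Myl7, the atrial regulatory light chain, was the member with the most uneven early signal. In growth it was at 5.04, 4.85 and 3.79, and at day 4 at 3.80, 6.65 and 7.01 for replicates A, B and C. Replicates B and C of day 4 were thus above all growth arrays and replicate A was not. At day 6 both arrays were dim, at 3.36 and 2.60, below all arrays of growth and day 4. On these day 4 arrays the mean log2 level of the undifferentiated markers was 5.95 in A, 7.14 in B and 7.65 in C. The 2 day 4 arrays with more Myl7 thus also had more of these markers. On the growth arrays the marker level was higher still, 9.62 to 9.97, while Myl7 was lower than on those 2 arrays. The part of these markers in the result was not tested. Day 4 was 1.26 ± 1.50 log2 (SE) above growth (limma adjusted p = 0.532), and day 6 was 2.98 ± 0.53 (SD, n = 2). The difference of day 6 from day 4, -2.84 log2, was not called with all arrays (adjusted p = 0.411) and was called without day 8 replicate A (adjusted p = 0.0275).

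The rise of Myl7 began at day 8 on 2 of 3 arrays. Day 8 replicates A, B and C were at 3.27, 10.27 and 11.23, so that A lay in the range of day 6 and B and C far above growth. The mean of 3 arrays, 8.26 ± 4.35 (SD), was not called above growth (3.70 ± 1.50 log2, SE, adjusted p = 0.0517). Without replicate A the difference was 6.19 ± 0.73 log2 (adjusted p = 1.59e-05). It was also called without day 4 replicate A (adjusted p = 0.0462), with the stricter dim filter (0.0477), with values under 4 set to 4 (0.0308), with a variance trend (0.044) and with array weights (0.000173). At day 10 the arrays stood at 14.52, 14.30 and 14.08, 854-fold above growth (9.74 ± 1.50 log2, adjusted p = 7.75e-05), and at day 12 at 14.70 and 14.69 (10.13 ± 1.67 log2, adjusted p = 0.000145). Days 10 and 12 did not overlap with growth or with each other, yet their difference of 0.40 log2 was not called, with a 95% interval from -3.20 to 4.00.

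Myl4, the atrial essential light chain, was dim on all arrays of growth and of days 4 and 6. In growth it was at 2.82, 2.78 and 2.76, at day 4 at 2.91, 3.53 and 3.53, and at day 6 at 3.14 and 3.76. All day 4 and day 6 arrays were above the growth arrays, within the dim range, where no level is read. Day 8 replicate A was at 3.60, and B and C were at 8.28 and 8.48. The split of the day 8 arrays was the same as in Myl7, and the rise over growth was called (at least 6.91-fold, adjusted p = 0.00191). Without replicate A the fitted difference was 5.60 ± 0.24 log2 (SE, adjusted p = 2.5e-09), with a day 8 mean of 8.38. Growth was dim, so that this size is not read as a fold. At day 10 the arrays were at 12.73, 12.12 and 12.35 (at least 339-fold above growth, adjusted p = 8.7e-07). At day 12 they were at 13.74 and 13.60 (at least 814-fold, adjusted p = 8.48e-07), above all day 10 arrays. That last step of 1.27 log2 was called only without day 8 replicate A, among the settings tried (adjusted p = 0.00864, against 0.574 with it). A second Myl4 probe set stayed between 3.06 and 3.54 on all 16 arrays, so that the rise rests on 1 of the gene's 2 probe sets.

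Myl9, the smooth muscle and nonmuscle regulatory light chain, was low before it rose. It was at 3.97, 4.60 and 4.24 in growth and at 3.68, 3.01 and 3.17 at day 4. All day 4 arrays were below all growth arrays, and the difference of -0.98 ± 0.45 log2 (SE) was not called (adjusted p = 0.0873). Day 6 was at 3.18 and 3.71. At day 8 replicates A, B and C were at 4.04, 5.65 and 6.47, with A again lowest and within the growth range. The day 8 mean was 1.12 ± 0.45 log2 above growth (adjusted p = 0.0495). This call was lost under most settings tried, with adjusted p up to 0.256 without day 8 replicate C, and was clear without replicate A (1.79 ± 0.30 log2, adjusted p = 0.000264). At day 10 Myl9 stood at 11.28, 11.01 and 10.68, 106-fold above growth (6.72 ± 0.45 log2, adjusted p = 4.29e-08). At day 12 it stood at 13.27 and 12.98, 463-fold above growth (8.85 ± 0.50 log2, adjusted p = 9.5e-09). The step from day 10 to day 12 was 2.13 ± 0.50 log2 (adjusted p = 0.0303). It lost its call without either day 12 array and without day 10 replicate B or C, with adjusted p up to 0.164, and with no dim filter (adjusted p = 0.0749).

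Myl1, the fast skeletal essential light chain, stayed dim through day 8. Its 11 arrays of growth and of days 4 to 8 ran from 2.85 to 3.49, and the 3 day 8 arrays, replicate A included, were between 3.08 and 3.15. Unlike the atrial chains and Myl9, Myl1 showed no split of the day 8 arrays. At day 10 it was at 7.40, 6.78 and 6.52 (at least 7.47-fold above growth, adjusted p = 7.48e-08). At day 12 it was at 9.03 and 7.81 (at least 21.4-fold, adjusted p = 9.7e-09). The step from day 10 to day 12, 1.52 ± 0.31 log2 (SE), was called (adjusted p = 0.0117), and lost its call without day 12 replicate A (0.91 log2, adjusted p = 0.107) or day 10 replicate C (1.33 log2, adjusted p = 0.0566).

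Most markers of fast skeletal muscle stayed dim where Myl1 rose. Of 9 such markers on the array 8 were dim on all 16 arrays, among them the skeletal muscle regulators Myod1, Myog and Myf5, the creatine kinase Ckm and the fast troponins Tnnt3, Tnni2 and Tnnc2. The exception, Actn3, was at 6.06 ± 0.51 (SD, n = 3) in growth and 5.12 ± 0.29 (n = 2) at day 12, where it was not called. It was called lower than growth at days 4, 6, 8 and 10, and was called higher at day 12 than at day 10 (by 1.17 log2), a step over which Myl1 was also higher. The mean log2 level of the list was 3.03 to 3.05 in growth, 2.74 to 2.80 at day 10 and 2.85 to 2.93 at day 12. The part of this in the Myl1 result was not tested. Mylpf, the fast skeletal regulatory chain that pairs with Myl1 in skeletal fibres, was dim on all arrays, at 3.45 or less.

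Myl3, the ventricular and slow skeletal essential light chain, rose at the same step as Myl1. By its brightest probe set the 11 arrays up to day 8 were between 5.07 and 5.63. At day 10 it was at 8.12, 7.87 and 7.74 (2.44 ± 0.19 log2, SE, above growth, adjusted p = 2.01e-07), and at day 12 at 9.70 and 9.07 (3.91 ± 0.21 log2, adjusted p = 7.09e-09). Days 10 and 12 did not overlap with earlier groups or with each other, and the step between them was called (1.47 ± 0.21 log2, adjusted p = 0.00113). Its other probe sets, fitted in its place after the data were seen, were dim on all growth arrays, so that only a lower bound of their change can be given. One ran from 2.68 ± 0.04 (SD) in growth to 8.88 ± 0.16 at day 10 and 10.31 ± 0.01 at day 12, at least 29.3-fold and 79.4-fold above growth. The other ran from 1.80 ± 0.01 to 7.04 ± 0.12 and 7.96 ± 0.28, at least 8.21-fold and 15.6-fold above growth. All 3 probe sets called both days higher than growth, but for the step from day 10 to 12 neither of these 2 met the call (1.44 log2 with adjusted p = 0.0574, and 0.93 log2, under the 1 log2 threshold). On the first of them day 8 replicate C alone was above the cutoff, at 4.56.

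**Figure D3:**
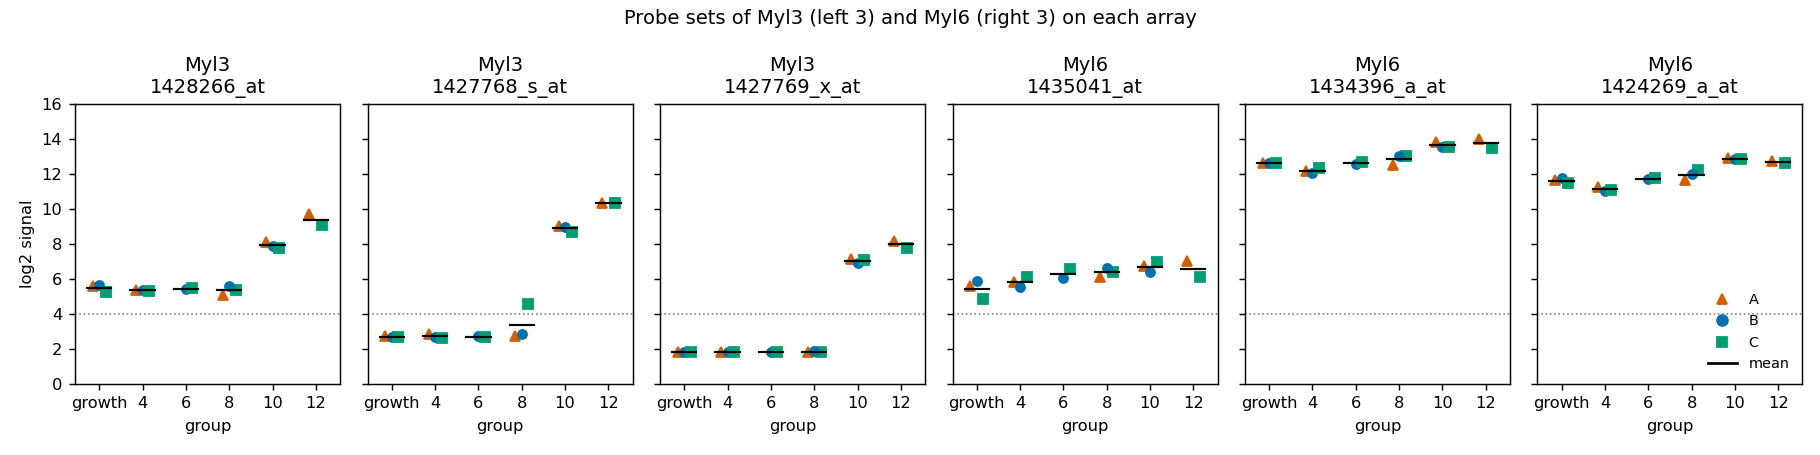
Log2 signal of the 3 probe sets of Myl3 (left) and the 3 that name Myl6 (right) on each array, by group, with replicate letters as symbols and group means as bars. The Myl3 probe sets start at 5.48, 2.68 and 1.80 in growth and all are higher at days 10 and 12. The 2 brighter Myl6 probe sets, which also name pseudogenes, lie between 11.02 and 14.01.

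Myl2, the ventricular and slow skeletal regulatory light chain, was the only member with a dim array at day 10. Its growth arrays were at 2.30, 2.30 and 2.31, and all 11 arrays up to day 8 were at 3.20 or less. Day 10 was uneven, at 2.93, 4.84 and 4.29 for A, B and C, so that 2 of 3 arrays were above the cutoff. It was called higher than growth (1.72 ± 0.44 log2, SE, adjusted p = 0.00423), but not once values under 4 were set to 4 (0.38 log2, adjusted p = 0.33). Day 12 was at 4.94 and 6.63 (at least 3.45-fold above growth, adjusted p = 4.03e-05), with both arrays above all day 10 arrays. The step from day 10 to 12 was 1.77 ± 0.50 log2 and was not called (adjusted p = 0.0691). It was called without day 12 replicate A or day 10 replicate B (adjusted p = 0.0183 and 0.0348), and with values under 4 set to 4 (1.41 log2, adjusted p = 0.0405).

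Myl6, the smooth muscle and nonmuscle essential light chain, was above the cutoff on all 16 arrays. Its growth arrays were at 5.61, 5.86 and 4.82, day 10 was at 6.74, 6.38 and 6.94, and day 12 was at 7.04 and 6.11. Days 10 and 12 lay above growth on all arrays, by 1.26 ± 0.30 log2 (SE, adjusted p = 0.00257) and 1.14 ± 0.34 log2 (adjusted p = 0.00945). Both calls were lost without growth replicate C, the lowest array, as the differences, 0.95 and 0.84 log2, fell under the 1 log2 threshold. The day 12 call was also lost without day 12 replicate A (0.68 log2, adjusted p = 0.159), with quantile normalization again and with only the groups compared. At day 8 the difference of 0.94 log2 was short of the 1 log2 threshold (adjusted p = 0.0181), and without replicate A it passed it (1.07 log2, adjusted p = 0.0178). A further 2 probe sets name Myl6 together with the pseudogenes Gm8894 and Gm5526 and were brighter, so that signal from the gene and from its copies cannot be told apart there. The first went from 12.61 ± 0.02 (SD, n = 3) in growth to 13.63 ± 0.16 at day 10 and 13.73 ± 0.39 (n = 2) at day 12. The second went from 11.60 ± 0.15 to 12.84 ± 0.03 and 12.66 ± 0.07. Fitted in place of the first choice after the data were seen, they gave differences of 1.01 and 1.24 log2 at day 10 and 1.12 and 1.06 log2 at day 12, each called. Both were lowest at day 4, at 12.18 ± 0.15 and 11.10 ± 0.11, where neither difference from growth reached 1 log2.

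Steps between neighbouring days differed between the light chains. With all arrays the larger differences lay between days 8 and 10, but without day 8 replicate A the fitted differences of Myl7 and Myl4 were larger from day 6 to 8 than from day 8 to 10. From day 4 to 6, 0 of 7 were called by limma (6.13% of all genes in either direction), and 0 had an unadjusted p under 0.05. From day 6 to 8, 0 of 7 were called (0.0185% of all genes), with an unadjusted p under 0.05 for 3. Without day 8 replicate A this step called Myl7 (7.77 ± 0.80 log2, SE, adjusted p = 7.14e-05), Myl4 (4.93 ± 0.26 log2, adjusted p = 2.92e-07) and Myl9 (2.61 ± 0.33 log2, adjusted p = 0.000322), where 5.67% of all genes were called. All day 6 arrays of these members were dim, so that the fitted sizes are not read as folds. Their day 8 means without replicate A were 10.75, 8.38 and 6.06. From day 8 to 10, 6 of 7 were higher, all but Myl6, where 7.81% of all genes were called in either direction (5.80% without day 8 replicate A). Fitted differences over that step were 6.04 ± 1.50 log2 for Myl7, 5.61 ± 0.89 for Myl4, 5.60 ± 0.45 for Myl9, 3.79 ± 0.27 for Myl1, 2.57 ± 0.19 for Myl3 and 1.69 ± 0.44 for Myl2. Without day 8 replicate A the fitted differences were 3.55, 4.02, 4.93, 3.77, 2.43 and 1.68 in that order, and Myl2 was no longer called (adjusted p = 0.0618). Myl1 and Myl2 were dim on all day 8 arrays, so that their rises are read only as at least 7.47-fold and 1.01-fold. The call of Myl7 was also lost without day 10 replicate A (adjusted p = 0.0506), and that of Myl2 without day 10 replicate B or C (adjusted p = 0.0839 and 0.0649). Both were lost with no dim filter and with only the groups compared. Myl2 was also lost with values under 4 set to 4 (0.38 log2). From day 10 to 12, 3 of 7 were higher, Myl1, Myl3 and Myl9, where 3.06% of all genes were called in either direction. Myl6 differed by -0.11 log2 over this step, which was not called (95% interval from -0.84 to 0.61). Comparisons of neighbouring days share arrays, so their values stand side by side and are not independent.

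**Figure D4:**
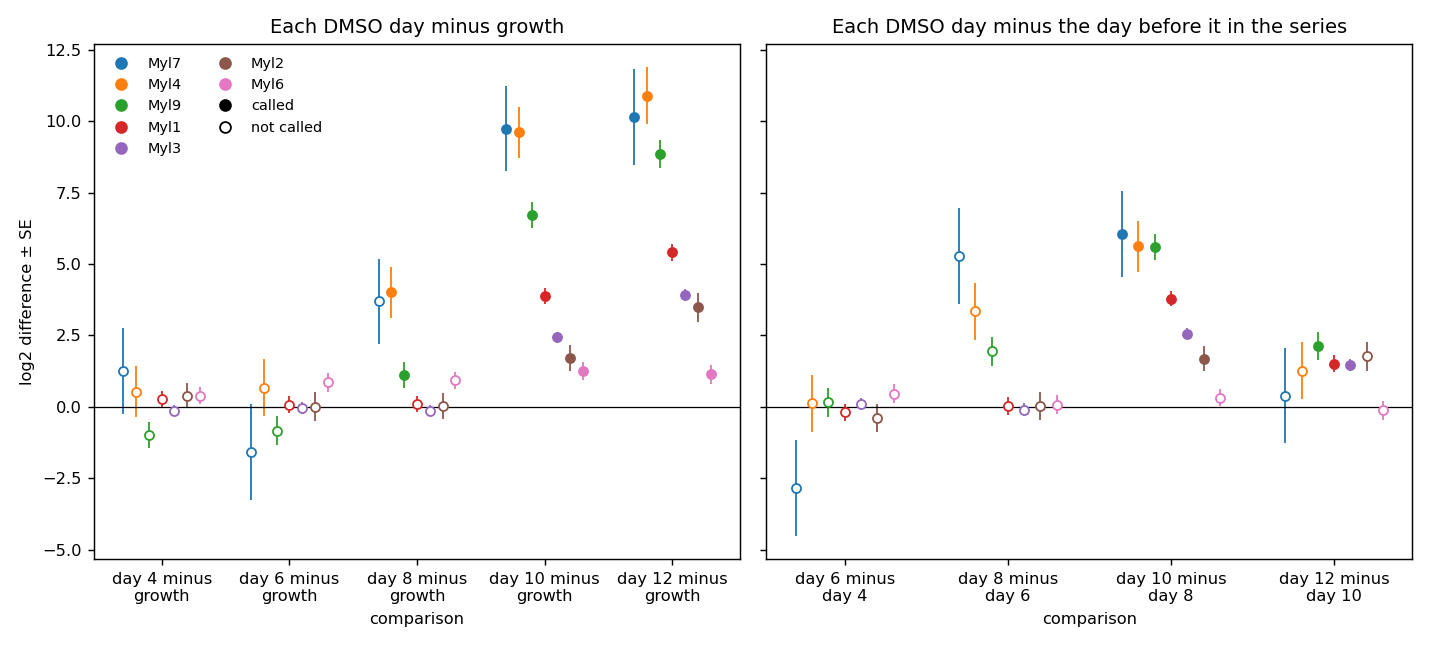
Log2 difference ± SE of each light chain, each DMSO day minus growth (left) and minus the preceding sampled day (right). Filled points were called at adjusted p under 0.05 and at least 1 log2. All 7 points are filled at days 10 and 12 on the left, and 6 of 7 for day 10 minus day 8 on the right.

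Some genes outside the family followed nearly the same course over the 16 arrays. By Pearson correlation of log2 signals, given as a description since all arrays share the time course, the genes most like Myl4 were Mybpc3 (r = 0.996), Myom1 (0.995) and Klhl30 (0.995). Mybpc3 is cardiac myosin-binding protein C, and Myom1 is a protein of the M-band of the sarcomere. Those most like Myl7 were Csrp3 (0.971), a muscle LIM protein, Upk1b (0.970) and Gsn (0.970). Those most like Myl9 were B3gnt9 (0.992), Myh6 (0.992) and Col3a1 (0.991), the alpha cardiac myosin heavy chain and a fibrillar collagen among them. Those most like Myl1 were Grhl1 (0.998), Lox (0.992) and Tnni3 (0.990), the last being cardiac troponin I. Those most like Myl3 were Grhl1 (0.994), Trdn (0.992), triadin of the calcium release unit, and Hpgd (0.989). Those most like Myl2 were Fam189a2 (0.967), Slc2a13 (0.966) and Laptm5 (0.965). Within the family Myl1 and Myl3 correlated at 0.992 and Myl4 and Myl7 at 0.967, and Myl2 and Myl6 had the lowest value, 0.346.

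Of the other light chains on the array, the nonmuscle regulatory chains Myl12a and Myl12b were bright in all groups. Myl12a went from 11.50 ± 0.16 (SD, n = 3) in growth to 12.60 ± 0.22 (n = 2) at day 12 and was called then (1.10 ± 0.18 log2, SE), the 1 call among the 2 tested. Myl12b was at 11.19 ± 0.22 and 10.93 ± 0.41. Mylpf, Myl6b and Myl10 were dim on all 16 arrays.

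The myosin heavy chains that hold the light chains changed in part. Of 12 on the array 5 were tested, and 3 were higher and 1 lower than growth at each of days 8, 10 and 12. Of all genes, 31.0%, 38.0% and 41.9% were called in either direction on these days. Medians were 1.40, 1.61 and 1.44 log2 against 0.01, -0.02 and 0.00 over all genes. Myh6 and Myh7 were dim on all growth arrays and passed the filter only through DMSO days. Myh6, the alpha cardiac chain, was at 3.19 ± 0.07 (SD, n = 3) in growth and 13.73 ± 0.17 (n = 2) at day 12. Myh7, the beta cardiac chain, was at 3.58 ± 0.27 and 6.88 ± 1.07, and the nonmuscle chain Myh10 at 10.95 ± 0.18 and 12.39 ± 0.11. The nonmuscle chain Myh14 was lower, dim at day 12 against 4.28 ± 0.46 in growth. The smooth muscle chain Myh11, which Myl9 serves in mature smooth muscle, was dim on all 16 arrays, as were the skeletal chains Myh1, Myh2, Myh4 and Myh8. Without day 8 replicate A the same counts were found at day 8.

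Enzymes that act on the regulatory light chains were tested in 8 of the 11 measured. At day 12, 3 were higher and 1 lower than growth, with a median of 0.44 log2 against 0.00 over all genes. That is 4 of 8, where 41.9% of all genes were called, and it is no result about the list. Mylk3, the cardiac light chain kinase that acts on Myl2, rose from 2.84 ± 0.03 (SD, n = 3) to 7.45 ± 0.48 (n = 2), at least 10.96-fold (limma adjusted p = 2.64e-07). It was also called at days 8 and 10, and at day 8 without replicate A too, where Rock1 was called as well. Ppp1r14a, an inhibitor of myosin phosphatase in smooth muscle, fell at least 15.5-fold (adjusted p = 9.81e-07), from 7.95 ± 0.63 to a dim signal, and was called lower on each earlier DMSO day as well. Rock1, a kinase that inhibits the phosphatase, was higher by 1.53 ± 0.19 log2 (SE). Ppp1r12b, a phosphatase subunit of striated muscle, was dim in growth and at 4.38 ± 0.26 at day 12, at least 1.30-fold higher. The smooth muscle kinase Mylk and the skeletal kinase Mylk2 were dim on all arrays.

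Some transcription factors of muscle genes were higher than growth at day 4, where no light chain was called. Of 17 tested, 8 were called higher at day 4, 9 at day 6, 11 at day 8, 15 at day 10 and 16 at day 12. The others were not called. The shares of all genes called in either direction on these days were 27.0%, 26.8%, 31.0%, 38.0% and 41.9%. Without day 8 replicate A the day 8 count was also 11. The median over the list was 3.68 log2 at day 12, against 0.00 over all genes. Nkx2-5, Gata4, Mef2c, Myocd, Tbx5, Tbx20, Hand1, Hand2, Isl1, Nr2f1 and Nr2f2 were dim on all growth arrays. They passed the filter only through DMSO days, so that the counts and the median describe the list alone. Hand2, Tbx20, Gata6 and Gata4, all factors of the early heart, had the 4 largest fitted differences at day 12. Their growth signal was dim on all arrays (on 2 of 3 for Gata6), so that their order is not read. Day 12 was at least 246-fold above growth for Hand2, 139.9-fold for Tbx20 and 47.1-fold for Gata4, and Gata6 went from 3.86 ± 0.42 (SD, n = 3) to 11.22 ± 0.22 (n = 2). Srf and Myocd were singled out after the CArG boxes were seen, as the factor of that element and its heart and smooth muscle partner. Srf was at 7.51 ± 0.20 (SD, n = 3) in growth and 8.03 ± 0.18 (n = 2) at day 12, a difference not called. Myocd, dim in growth, was at 5.56 ± 1.70 at day 12 and was called (at least 2.95-fold, adjusted p = 0.0372). The skeletal regulators Myod1, Myog, Myf5 and Myf6 and the ventricular factor Irx4 were dim on all arrays.

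Cell type markers without light chains moved along with the members, and their part in the results was not tested. The mean log2 level of 6 cardiomyocyte markers was 2.67 to 2.85 in growth, 3.67 on day 8 replicate A against 5.26 and 6.00 on replicates B and C, 9.04 to 9.53 at day 10 and 10.7 at day 12. All 6, Tnnt2, Actc1, Tnni3, Ttn, Nkx2-5 and Ryr2, were higher than growth at days 10 and 12. They were dim on all growth arrays and passed the filter only through DMSO days, so that these calls describe the list alone. Of all genes, 31.0%, 38.0% and 41.9% were called in either direction at days 8, 10 and 12. Of 7 smooth muscle markers, 5 were tested and 4 were higher at day 12, Acta2, Tagln, Cnn1 and Actg2, while Myh11 and Lmod1 were dim on all arrays. Their mean level was 3.58 to 3.84 in growth, 5.64 to 5.90 at day 10 and 7.01 to 7.03 at day 12. Fibroblast and matrix markers were higher in 5 of 5 at day 12, with a mean level of 7.69 to 7.99 against 2.66 to 2.81 in growth. Endothelium and blood markers were higher in 4 of 5 at day 12, with a mean level of 6.04 to 6.16 against 2.59 to 2.86. At day 8, 3 of 5 were called higher (4 without replicate A). On the day 8 arrays that level ran from 2.84 to 7.66, and at day 10 from 7.68 to 8.16, where the embryonic globins Hbb-bh1 and Hba-x were among the 3 of 5 called. The growth means of the fibroblast and matrix list and of the endothelium and blood list were under the dim cutoff. Calls of these lists therefore describe the lists alone. Chamber markers were split. Of 6 atrial markers, 3 were tested and all 3 (Nr2f2, Nr2f1 and Kcna5) were higher at day 12. These 3 were dim on all growth arrays and passed the filter only through DMSO days, so that their calls describe the list alone. Sln was not tested and went from 2.15 in growth to 3.97 at day 12, above the cutoff on 1 array, while Nppa and Bmp10 were dim on all arrays. Of 5 ventricular markers, Hey2 and Myh7 were higher at day 12 among 3 tested, Gja1 was not called (it was lower at day 10), and Irx4 and Kcne1 were dim on all arrays.

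**Figure D5:**
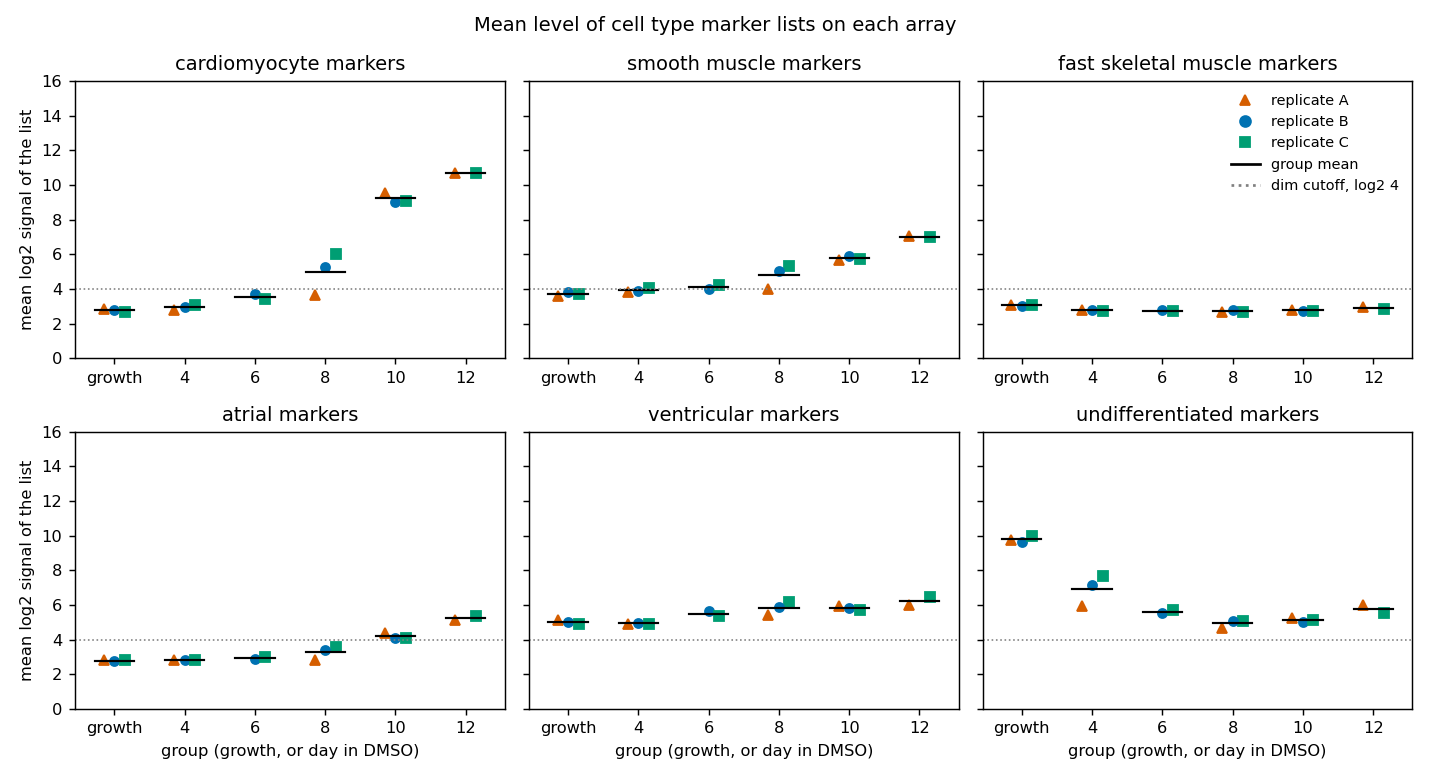
Mean log2 signal of 6 marker lists on each array, by group, with replicate letters as symbols, group means as bars and the dim cutoff of 4 dotted. Cardiomyocyte markers reach 9.04 to 9.53 at day 10, day 8 replicate A lies below B and C, and fast skeletal markers stay between 2.67 and 3.05.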

How the data were processed

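Values are log2 probe set signals that the authors deposited as 1 table for 16 Affymetrix mouse arrays. GCRMA, a method that corrects background using probe sequence, is named for them in the submitters' processing notes. The scale is not given in the sources used here and was read from the range, 0.86 to 15.9. Genes were named by the platform annotation, with 1 probe set per gene, that of the highest mean naming 1 gene and lying above log2 4 on at least 2 arrays. All 10802 genes and 16 arrays entered 1 linear model of the 6 groups in limma 3.58.1 (R 4.3.3), with two-sided tests. The fit was checked on simulated data with independent noise and shifts at day 12 only. The simulation held no outlying array and no dim floor, so that it cannot speak for calls that hang on these. A gene was called at 1 log2 or more with p under 0.05 after Benjamini-Hochberg adjustment across all genes. The 7 members are all named, with up to 4 called genes of each companion list (heavy chains, kinases and phosphatase, transcription factors) by size at day 12, all other light chains, and the 3 genes most correlated with each member whose group means span 2 log2. Folds against a dim group take the bright group's mean over 4 as a lower bound. Members and lists were chosen with earlier results of these data known. Dim genes and cell type markers are named beyond this rule. Srf and Myocd were added after their values were seen. Rock2, Myh13, Mkl1 and Mkl2 were not analysed here.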

Additional observations from a re-analysis of the deposited data

How the results depend on the processing

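Counts of the 7 members called were recomputed under 11 other settings and without each of the 16 arrays. Of 25 called differences, 15 kept their call under all planned settings that tested them, and 0 reversed. At day 8 against growth the count was 2. It was 1 with no dim filter, with quantile normalization again, with scaling to a common median, with only the groups compared and with probe sets averaged per gene, and 4 with array weights. It was 3, with Myl7 added, under the stricter dim filter, with values under 4 set to 4 and with a variance trend and robust estimation. Array weights also gave 1 at day 4 (Myl9) and 3 from day 6 to 8, where the count was 0. With only the groups compared, the count was 1 at day 6 (Myl7), 3 from day 8 to 10 and 1 from day 10 to 12, and Myl6 was lost at day 12. Quantile normalization again lost Myl6 at day 12 and for any change. Setting values under 4 to 4 lost Myl2 at day 10 and from day 8 to 10, and gained it from day 10 to 12. Having no dim filter lost Myl2 and Myl7 from day 8 to 10 and Myl9 from day 10 to 12. Myl2 failed the stricter dim filter and was not tested there. The causes were not tested. Leaving out 1 array gave 0 at day 4, 0 to 1 at day 6, 1 to 4 at day 8, 6 to 7 at days 10 and 12, 0 to 1 from day 4 to 6, 0 to 3 from day 6 to 8, 5 to 6 from day 8 to 10, 1 to 4 from day 10 to 12 and 6 to 7 for any change.

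The labels do not say that replicate letters pair the arrays. Same-letter deviations correlated at a median of 0.06, over 0.1 in 13 of 35 pairs and up to 0.32. Deviations of arrays with other letters correlated at a median of -0.03. These values do not settle whether the letters pair the arrays. With the letter as a replicate block the counts were 0, 0, 2, 7 and 7 against growth, 0, 0, 6 and 3 between neighbouring days and 7 for any change. The genes differed: the block lost Myl9 (adjusted p = 0.064) and gained Myl7 (0.0399) at day 8, and lost Myl9 (0.055) and gained Myl2 (0.0255) from day 10 to 12. From day 6 to 8 the block called 14 genes of the whole table, the fit without it 2, and the fit without day 8 replicate A 613. The small number of arrays limits precision, and dim signals bound folds only.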
